A study of Rattus norvegicus with 13 samples.

Results

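The 10 genes described here mark inhibitory interneurons and peptide-releasing neurons of the cerebral cortex, and were followed across arrays of rat cortical axons and neurons. They are the neuropeptide genes *Cck*, *Sst*, *Npy*, *Vip*, *Penk* and *Tac1*, the enzymes of GABA synthesis *Gad1* and *Gad2*, and the calcium-binding protein genes *Calb1* and *Calb2*. The members were the probe sets of the deposited table whose single platform symbol is one of these genes. All 10 were found among 14217 named genes, in 11 of 31042 probe sets that are not array controls, because *Gad1* has 2 probe sets and each other gene has 1. Probe sets were picked by symbol and not by value, but the genes were listed with earlier results of these data known.

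Rat cortical neurons were cultured for 13 days in a microfluidic platform whose channels let axons grow into a chamber away from the cell bodies. GeneChip arrays were hybridised with their polyadenylated RNA in 3 groups, all harvested on day 13. There were 7 arrays of uninjured axons, 3 of regenerating axons, axotomised on day 11 and given 2 days to regrow, and 3 of uninjured neurons taken from the neuronal compartment. Material of 3 platforms was pooled for an array, and 3 batches of culture supplied the uninjured axons. The strain and the age of the donor animals are not given in the sources used here. Arrays of a group are not said to come from separate cultures, so p-values measure the spread between these samples, which may be technical. Against uninjured axons they also rest on an assumed error of the reference, described below.

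Inhibitory neurons of the cortex make the transmitter GABA from glutamate with 2 forms of glutamate decarboxylase, which *Gad1* (GAD67) and *Gad2* (GAD65) encode. They are sorted into classes by the neuropeptides and calcium-binding proteins they contain: somatostatin and neuropeptide Y are often found together, vasoactive intestinal peptide and calretinin (*Calb2*) mark another class, and calbindin (*Calb1*) occurs in several. Neuropeptides are cut from longer precursors, packed into dense-core vesicles in the cell body and carried along the axon, so the peptide can be abundant in an axon without its messenger RNA. Cholecystokinin (*Cck*) is made by some interneurons and, at the RNA level, also by many excitatory cortical cells.

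Each deposited value is a linear ratio without a unit. Uninjured arrays 1 to 3 and 4 to 6 were each divided by the median of their 3 arrays, and uninjured array 7 reads exactly 1 throughout and holds no measurement. The reference of the neuron and regenerating arrays is not stated and was taken to be uninjured axons, on which every direction against uninjured axons rests. A ratio shows neither whether a transcript was present in axons nor which of 2 genes was more abundant. A log2 difference of 1 is a 2-fold difference, and values after ± are standard errors from limma (n = 3 arrays). Against uninjured axons these include an error assumed for the reference, which was not measured. A probe set was called at a Benjamini-Hochberg adjusted p under 0.05 over all 31042 probe sets.

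The neuron label was checked against marker genes. Of 23 probe sets for pan-neuronal markers, 19 were higher in neurons than in uninjured axons and 1 was lower, with a median log2 difference of 3.48 beside -0.07 over all probe sets. Astrocyte markers were higher in 13 of 21 probe sets and lower in 2, so the neuron arrays also held RNA read by glial probe sets. Microglia and macrophage markers were higher in none of 15 in limma and lower in 11, with log2 differences from -1.43 to -0.36. All lie within the range of genes for smell, taste and pheromone receptors (-1.61 to 0.20). That class is assumed below to have little expression in cortex. Whether these microglia and macrophage probe sets read any transcript above background was not tested. The marker counts are to be read beside 28.4% of all probe sets called higher and 27.5% called lower. Because whole samples were measured, fewer cells of a type and less RNA per cell cannot be told apart.

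The sequence known to drive somatostatin transcription in response to cyclic AMP is shown first, because this element is a textbook feature of the gene of the member with the largest difference between neurons and axons. Windows of 300 bases around the annotated gene starts (RefSeq, GRCr8, 250 before and 50 after) were matched for 6 of the 10 genes, *Sst*, *Npy*, *Vip*, *Tac1*, *Gad1* and *Gad2*. They were searched for the element TGACGTCA, which reads the same on both strands, and for its core TGACG on either strand, which overlaps the full element. The full element is in 1.83% of 33469 such windows and in 1 of the 6, that of *Sst*. It was chosen because it is known from *Sst*, so the match there was foreseen and the share lends it no weight. The core is in 21.2% of all windows and in 3 of the 6. Capitals mark the match in each 30-base stretch, on the plus strand at chr11:90461537-90461566, chr1:44470370-44470399 and chr4:36645364-36645393 in order:
Sst: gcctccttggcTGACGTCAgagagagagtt
Vip: gggatcaccactgTGACGtctttcgaggag
Tac1: ttccctaaaattgCGTCAtttcgaacccaa
Relative to the annotated gene start the matches begin at 3, -97 and -206 bases in order, so that of *Sst* lies after the annotated start. Whether transcription begins at the annotated starts was not tested. A match is a description of these letters. Of the genes with a match, *Sst* had a log2 difference of 5.32 between neurons and uninjured axons, *Vip* of 0.14 and *Tac1* of 0.07. Of those searched and without a match, *Npy* had 1.66, *Gad2* -0.82 and *Gad1* 4.16 and 0.08 in its 2 probe sets. These differences compare RNA between compartments and do not measure promoter activity. Whether the letters have a part in them was not tested.

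Setting neurons beside uninjured axons addresses which transcripts were relatively higher in the neuronal compartment. In that comparison 6 of the 11 probe sets were higher in neurons, those of *Sst*, *Calb1*, *Cck*, *Calb2*, *Npy* and 1 of *Gad1*, by 3.17-fold to 39.9-fold. *Gad2* was lower, and *Vip*, *Penk*, *Tac1* and the second probe set of *Gad1* did not pass. Over all probe sets 28.4% were called higher and 27.5% lower. Neuron arrays lay entirely above the uninjured ones in 6 of the 11 and entirely below in 2, beside 33.1% and 36.8% of all probe sets. The median of the 11 was log2 1.66.

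**Figure D1:**
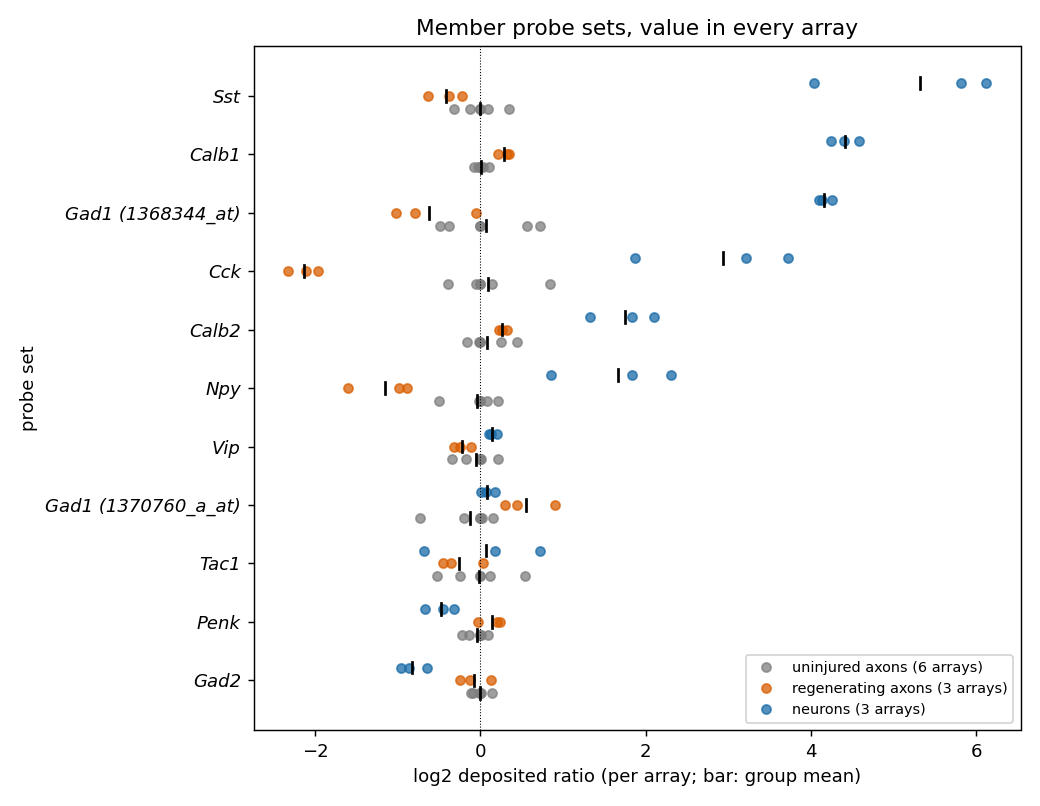
Log2 deposited ratio of each member probe set (vertical axis, ordered by the neuron mean) in 6 uninjured axon arrays (grey), 3 regenerating axon arrays (orange) and 3 neuron arrays (blue), with black bars at group means. Neuron points of Sst, Calb1 and 1 Gad1 probe set lie above 4, those of Gad2 lie below 0, and regenerating points of Cck lie near -2.

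Somatostatin, the peptide of interneurons that target dendrites, had the largest difference. The *Sst* ratio was 56.1, 16.4 and 69.2 in neuron arrays 1, 2 and 3 and 0.799 to 1.27 in the uninjured axon arrays. All neuron arrays lay far above all axon arrays, and array 2 lay apart from the other neuron arrays. The difference was log2 5.32 ± 0.63 or 39.9-fold (adjusted p = 0.000131), and 99.6% of all probe sets had a lower one.

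Cholecystokinin and neuropeptide Y, both abundant cortical peptides, were higher in neurons by smaller amounts. The *Cck* ratio was 9.28, 3.67 and 13.2 in the neuron arrays and 0.761 to 1.80 in uninjured axons. The groups did not overlap, and the difference was log2 2.94 ± 0.62 or 7.65-fold (adjusted p = 0.00343). The *Npy* ratio was 3.56, 1.81 and 4.94 in the neuron arrays and 0.708 to 1.15 in uninjured axons. It was 3.17-fold higher in neurons (log2 1.66 ± 0.46, adjusted p = 0.0125), again without overlap.

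The other peptide genes showed no called excess in neurons. *Vip*, the peptide of interneurons that inhibit other interneurons, read 1.14, 1.07 and 1.09 in the neuron arrays against 0.791 to 1.16 in uninjured axons, an overlap, with a log2 difference of 0.14 ± 0.22 (adjusted p = 0.598, 95% interval -0.35 to 0.64). That interval leaves out differences as large as those of *Sst* and *Cck*. *Penk*, the precursor of the enkephalins, read 0.733, 0.629 and 0.799 in neurons, below every uninjured array (0.855 to 1.07), but its log2 difference of -0.48 ± 0.21 did not pass (adjusted p = 0.0758). Arrays lay entirely below in 36.8% of all probe sets. *Tac1*, the precursor of substance P, varied widely among the neuron arrays, at 1.13, 0.621 and 1.65, and overlapped the uninjured arrays (0.696 to 1.46; log2 0.07 ± 0.50, adjusted p = 0.913, 95% interval -1.05 to 1.19).

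The 2 probe sets of *Gad1*, the main enzyme of GABA synthesis in the cell body, gave different answers. Probe set 1368344_at read 17.5, 17.1 and 19.0 in the neuron arrays against 0.710 to 1.65 in uninjured axons, a 17.8-fold difference (log2 4.16 ± 0.44, adjusted p = 6.51e-05). Probe set 1370760_a_at read 1.0025, 1.05 and 1.13 against 0.600 to 1.11 (log2 0.08 ± 0.30, adjusted p = 0.826). The first separates neurons from axons in all arrays and the second does not, a gap of 4.07 on the log2 scale. Among 4525 genes with more than 1 probe set, 5.33% had a gap at least as large, and the median gap was 1.22. The suffix _a_at marks probe sets that read more than one transcript of a gene, and which transcripts each reads was not tested.

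*Gad2*, the form of the enzyme tied to synaptic vesicles, was the member called lower in neurons. Its ratio was 0.513, 0.550 and 0.639 in the neuron arrays and 0.927 to 1.10 in uninjured axons, without overlap (1.77-fold lower, log2 -0.82 ± 0.20, adjusted p = 0.00661). The value lies within the range of genes for smell, taste and pheromone receptors, a class assumed here to have little expression in cortex, an assumption that was not tested. The 29 probe sets of that class ran from -1.61 to 0.20 in log2 difference (median -0.98), with 19 called lower in neurons and, in limma, none higher. All 5 member probe sets that were not called higher lie in that range (*Vip*, *Penk*, *Tac1*, *Gad2* and *Gad1* 1370760_a_at), and the 6 called higher lie above it. Of these 5, *Vip*, *Tac1* and *Gad1* 1370760_a_at lie at its upper end, above the 95th percentile of the class (-0.19). Whether these 5 read any transcript above background cannot be told from ratios.

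Both calcium-binding protein genes were higher in neurons. *Calb1* (calbindin) had the smallest standard error of the members called higher: 21.1, 18.9 and 24.0 in neurons against 0.944 to 1.07 in uninjured axons, 21.2-fold (log2 4.41 ± 0.19, adjusted p = 1.99e-06). *Calb2* (calretinin) read 4.28, 2.50 and 3.57 against 0.892 to 1.35, 3.37-fold (log2 1.75 ± 0.32, adjusted p = 0.00159). The 95% intervals of *Sst* (3.90 to 6.73), *Calb1* (3.98 to 4.84) and *Gad1* 1368344_at (3.17 to 5.14) overlap, as do those of *Cck* (1.55 to 4.33), *Calb2* (1.04 to 2.47) and *Npy* (0.63 to 2.70). That of *Cck* also overlaps those of *Sst*, *Calb1* and *Gad1* 1368344_at. Differences between members were not tested.

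**Figure D2:**
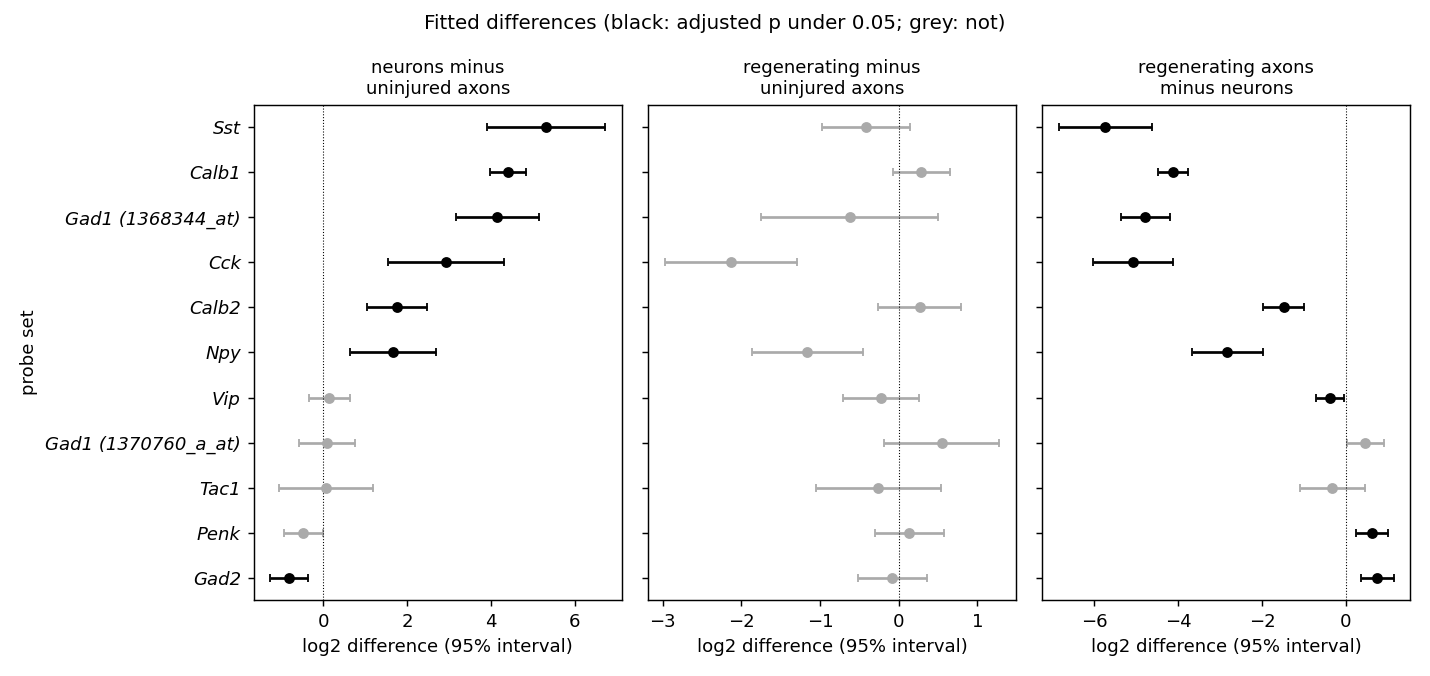
Fitted log2 differences with 95% intervals for the 11 member probe sets in 3 comparisons (one per panel, each with its own horizontal scale), black where the adjusted p is under 0.05 and grey where it is not. The left panel has 6 black points right of 0 and 1 left of it, the middle panel has none, and the right panel has 7 left of 0 and 2 right of it.

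The 3 neuron arrays differed among themselves in a way that set some members apart. In array 2 the *Sst* ratio was 0.263 times the geometric mean of arrays 1 and 3, that of *Cck* 0.332, *Npy* 0.432, *Tac1* 0.455 and *Calb2* 0.639. It was 0.842 for *Calb1* and 0.938 for *Gad1* 1368344_at. The neuropeptide genes with an excess in neurons were thus lowest in array 2 by the widest margin, while *Calb1* and *Gad1* read nearly alike in all 3 arrays. Over the 8820 probe sets called higher in neurons the median of this quotient was 0.761. A larger shortfall was seen in 0.397% of them than for *Sst*, 1.69% than for *Cck* and 6.56% than for *Npy*, but in 62.2% than for *Calb1*. The 18 hybridisation control probe sets, read from transcripts added in a fixed amount, averaged 0.356, 1.05 and 0.197 times the reference in the 3 arrays, and the 3′ probe set of beta-actin read 71.2, 38.4 and 80.1. Their part in the result was not tested. Without array 2 the difference of *Sst* was log2 5.96 (adjusted p = 2.69e-06), of *Cck* 3.47 (adjusted p = 0.000195) and of *Npy* 2.07 (adjusted p = 0.000469).

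**Figure D3:**
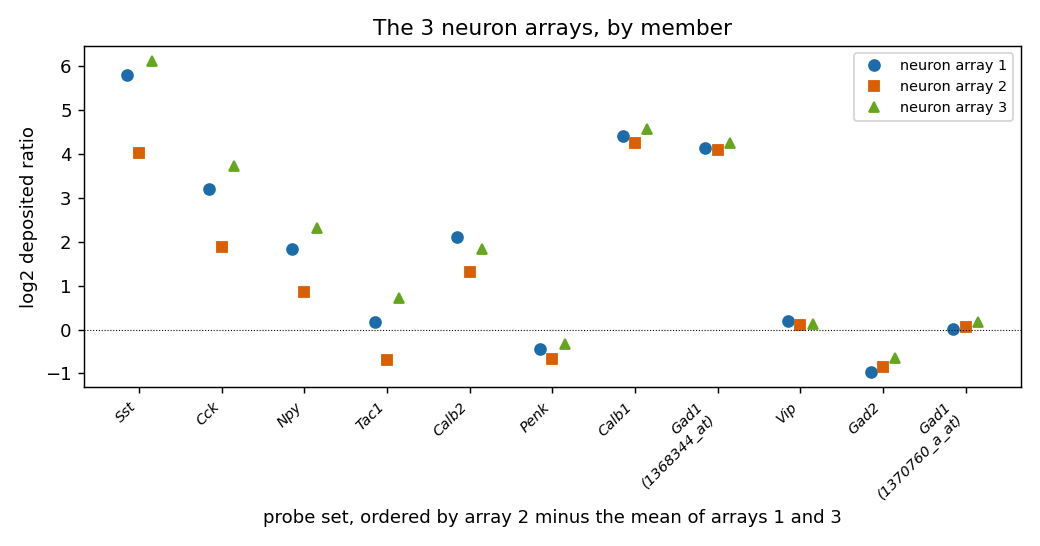
Log2 deposited ratio of each member probe set in neuron arrays 1, 2 and 3 (circles, squares, triangles), ordered by how far array 2 lies below the mean of the other arrays. Array 2 lies well below the others for Sst, Cck, Npy and Tac1 and beside them for Calb1, both Gad1 probe sets, Vip and Gad2.

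Setting regenerating beside uninjured axons addresses how axonal transcripts differed 2 days after cutting. None of the 11 probe sets passed in limma, 2 had an unadjusted p under 0.05, and both were lower in regenerating axons. Over all probe sets 10.9% had an unadjusted p under 0.05, 6.89% with a lower value. After adjustment 0.335% were called lower and 0.00966% higher. The median of the 11 was log2 -0.23, beside 0.03 over all probe sets.

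*Cck* had the largest value. Its ratio was 0.231, 0.200 and 0.255 in regenerating arrays 1, 2 and 3, below all 6 uninjured arrays (0.761 to 1.80), in which array 3 was highest. The log2 difference was -2.14 ± 0.38, a 4.40-fold ratio of uninjured to regenerating axons, with adjusted p = 0.0539, just outside the threshold. It was at -2.15 with adjusted p = 0.0468 without regenerating array 1, and the adjusted p was 0.0222 without uninjured array 1 and 0.0129 without uninjured array 3. It ran from 0.0129 to 0.154 over the fits that left out 1 array each. Of all probe sets, 1.46% had a lower difference.

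*Npy* read 0.538, 0.329 and 0.507 in regenerating axons, also below every uninjured array (0.708 to 1.15). Its log2 difference of -1.16 ± 0.32 had an adjusted p of 0.164, and 3.45% of all probe sets had a lower one. Regenerating arrays lay entirely below uninjured ones in 10.9% of all probe sets and entirely above in 10.3%. Among pan-neuronal markers, 10 of 23 probe sets had an unadjusted p under 0.05, all lower in regenerating axons, and in limma none passed. The mean log2 ratio of that list was -0.76, -1.07 and -1.32 in the 3 regenerating arrays and -0.32 to 0.28 in the uninjured ones. Its part in the values of *Cck* and *Npy* was not tested.

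The remaining members stayed closer to the uninjured arrays. *Sst* read 0.642, 0.769 and 0.856 (log2 -0.41 ± 0.25, adjusted p = 0.632, 95% interval -0.98 to 0.15), *Vip* 0.840, 0.922 and 0.802, *Tac1* 1.03, 0.783 and 0.729, and *Penk* 1.15, 0.980 and 1.18, each overlapping uninjured axons. *Gad1* 1368344_at spread from 0.492 to 0.965 (log2 -0.62 ± 0.50, adjusted p = 0.762) and *Gad1* 1370760_a_at from 1.23 to 1.87, above all uninjured arrays (log2 0.55 ± 0.33, adjusted p = 0.623). The 2 probe sets of this gene thus had opposite signs here, and neither passed. *Gad2* read 0.918, 0.841 and 1.09. *Calb1* read 1.27, 1.15 and 1.25, slightly but in every array above uninjured axons (log2 0.29 ± 0.17, adjusted p = 0.592), and *Calb2* read 1.17, 1.25 and 1.20 (log2 0.27 ± 0.24, adjusted p = 0.793), with overlap.

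Regenerating axons and neurons were compared directly as 2 groups of 3 arrays, which assumes the same reference for both. Of the 11 probe sets, 7 were lower in regenerating axons and 2 were higher, beside 35.2% and 37.3% of all probe sets. Arrays of the groups did not overlap in 10 of the 11, with regenerating arrays below in 7 and above in 3, beside 36.9% and 40.4% of all probe sets. This comparison shares its arrays with the other ones, so its values are not independent of them. *Sst* was 53.2-fold lower than in neurons (log2 -5.73 ± 0.48, adjusted p = 1.97e-05) and *Cck* 33.6-fold lower (log2 -5.07 ± 0.42, adjusted p = 1.70e-05). *Cck*, 7.65-fold lower in uninjured axons than in neurons, thus stood further from neurons in regenerating axons, by the amount given above that missed the threshold. *Gad1* 1368344_at was lower by log2 -4.78 ± 0.25, *Calb1* by -4.12 ± 0.16, *Npy* by -2.82 ± 0.36 and *Calb2* by -1.49 ± 0.21, with adjusted p-values from 4.36e-07 to 0.000367.

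The members with small differences in the earlier comparisons behaved less clearly here. *Vip* was 1.29-fold lower in regenerating axons than in neurons (log2 -0.37 ± 0.15, adjusted p = 0.0471), a call that was lost when any 1 of the 6 arrays was left out, with adjusted p from 0.0515 to 0.138. *Gad2* was 1.67-fold higher in regenerating axons (log2 0.74 ± 0.17, adjusted p = 0.00471) and *Penk* 1.53-fold higher (log2 0.62 ± 0.17, adjusted p = 0.00980). Both lie inside the range of the receptor class, which ran from -0.19 to 2.18 here with 25 of 29 probe sets called higher. *Gad1* 1370760_a_at did not pass (log2 0.47 ± 0.19, adjusted p = 0.0565), though it did without regenerating array 2 (0.59, adjusted p = 0.0399). *Tac1* did not pass (log2 -0.33 ± 0.34, adjusted p = 0.401) but did without neuron array 2 (-0.71, adjusted p = 0.0196).

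Next to the members, 5 lists of related genes were examined, with counts in probe sets. Counts of neurons against uninjured axons are to be read beside the 28.4% called higher and 27.5% called lower over all probe sets. No list was tested against the members or against another list. Of the other neuropeptide genes (20 genes, 22 probe sets), 2 probe sets (9.09%) were higher in neurons, both of *Adcyap1*, the precursor of the peptide PACAP (log2 1.11 ± 0.39, adjusted p = 0.0337, and 1.10 ± 0.29, adjusted p = 0.00929), and 11 were lower, led by *Pdyn*, the dynorphin precursor (-1.31 ± 0.32), and *Nmb*, neuromedin B (-1.01 ± 0.28). The list median was log2 -0.71. Receptors for these peptides (19 genes, 32 probe sets, median -0.72) were higher in neurons in 3 probe sets, among them *Npy1r*, a receptor for neuropeptide Y (log2 3.46 ± 0.36, adjusted p = 6.35e-05), and 1 of 3 for the somatostatin receptor gene *Sstr1* (2.32 ± 0.26). The other *Sstr1* probe sets read -1.42 ± 0.31, called lower (adjusted p = 0.00382), and -0.33, so this gene has no single direction here. The receptors were lower in 18, led by 1 probe set of *Oprm1* (-1.99 ± 0.31), whose other read -0.13, and by *Oprk1* (-1.59 ± 0.26), which encode opioid receptors. That value of *Oprm1* falls below all probe sets of the chemosensory receptor class, and those of *Pdyn*, *Nmb* and *Oprk1* lie inside its range.

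Genes of interneuron identity (22 genes, 33 probe sets, median log2 0.21) were higher in neurons in 11 probe sets (33.3%) and lower in 6 (18.2%), a share called higher that is near that of all probe sets. The cannabinoid receptor gene *Cnr1*, known from cholecystokinin interneurons, had 1 probe set at 6.46 ± 0.24 (adjusted p = 1.14e-06) and another at -0.69, a gap wider than that of *Gad1*. The transcription factor gene *Satb1* read 3.41 ± 0.34 and 2.99, while *Adarb2* (-1.23 ± 0.25) and *Nos1*, the neuronal nitric oxide synthase gene (-0.96 ± 0.33), were lower. Other genes of GABA synthesis, uptake and breakdown (10 genes, 22 probe sets, median 0.25) were higher in 10 and lower in 5. Those leading it, the transporter gene *Slc1a3* (5.45 ± 0.41, with its other probe sets at 3.67 and 0.56) and the glutamine synthetase gene *Glul* (4.41 ± 0.39), are known from astrocytes. *Abat*, the enzyme that breaks down GABA, was called lower in all 3 of its probe sets, at -2.08 ± 0.21, -1.21 ± 0.31 and -0.68 ± 0.20. Other calcium-binding proteins (19 genes, 30 probe sets, median 0.74) were higher in 14 and lower in 4, led by *Vsnl1*, a neuronal calcium sensor (5.86 ± 0.38), and *Rcn2* (5.68 ± 0.28). Their lowest probe set was 1 of *Rcn1* (-2.17 ± 0.39), whose other read 0.76.

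**Figure D4:**
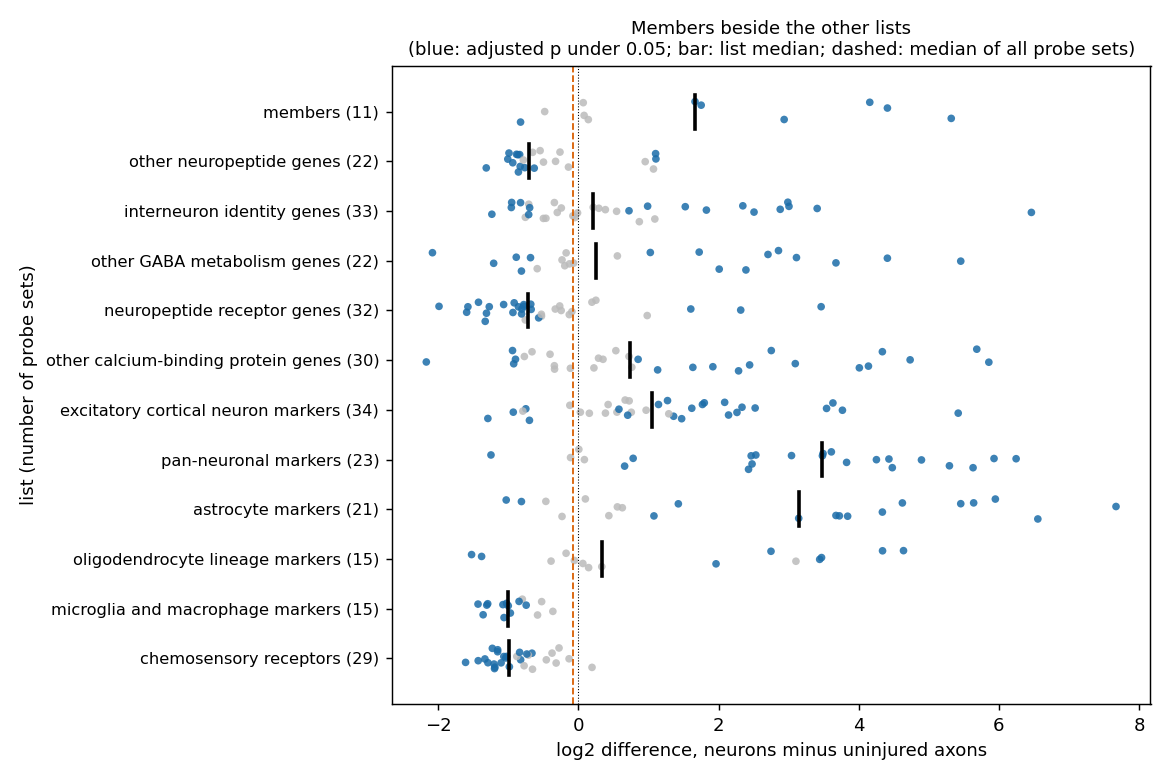
Log2 difference of neurons minus uninjured axons for every probe set of the members, of 5 related lists, of 5 marker lists and of chemosensory receptors (number of probe sets in brackets), blue where the adjusted p is under 0.05, with bars at list medians and a dashed line at the median of all probe sets. The members' median is 1.66, while those of the other neuropeptide genes and the peptide receptors are -0.71 and -0.72 and that of the chemosensory receptors is -0.98.

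In regenerating against uninjured axons, limma called none of the 138 probe sets of these 5 lists, and 9 (6.52%) had an unadjusted p under 0.05, below the 10.9% of all probe sets. Against neurons, regenerating axons were lower in 13 and higher in 11 of the 33 interneuron identity probe sets, and lower in 4 and higher in 13 of the 22 for other neuropeptides. Of all probe sets, 35.2% were lower and 37.3% higher in this comparison. The interneuron identity shares, 39.4% lower and 33.3% higher, are near these. *Nts*, the neurotensin precursor (-1.56 ± 0.39), and *Grp*, gastrin-releasing peptide (-1.21 ± 0.28), were lower, and *Gal*, the galanin precursor, was higher (1.41 ± 0.24), with adjusted p-values from 0.000838 to 0.00682. *Oxt* was higher as well (1.30 ± 0.20, adjusted p = 0.000531). The values of *Gal* and *Oxt* lie inside the range of the chemosensory receptor class here (-0.19 to 2.18, with 25 of 29 probe sets called higher). Against uninjured axons neither was called.

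Excitatory cortical neuron markers, the counterpart of these genes, were higher in neurons in 18 of 34 probe sets and lower in 4 (median log2 1.06), with *Mef2c* at 5.42 ± 0.82 and 1.47 in its 2 probe sets. Those lower were led by 1 probe set of *Lmo4* (-1.29 ± 0.18), of which another read 3.77 ± 0.32, and 1 of *Rorb* (-0.93 ± 0.25). In regenerating against uninjured axons limma called none of the 34, and 1 had an unadjusted p under 0.05. The share called higher in neurons was 52.9% of these probe sets, beside 28.4% of all.

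The probe set of another gene with the most similar pattern to each member was taken by Euclidean distance of log2 ratios over the 6 regenerating and neuron arrays. It was *Bbip1* for *Cck* (distance 0.29, with log2 differences of 2.90 in neurons and -2.09 in regenerating axons), *Aimp1* for *Npy* (0.28), *Pnisr* for *Calb1* (0.31) and *Apeh* for *Calb2* (0.27). *Sst* had its nearest neighbour further away, *Uchl1* at 0.84. For *Gad1* 1368344_at it was *Stx12* (0.53), and for *Gad2* it was *Nfkb2* (0.22). These are descriptions over arrays that share a reference.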

How the data were processed

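The authors deposited 1 table of linear ratios for 31099 probe sets on 13 arrays. Per the submitters' processing notes RMA was used, with no version or setting named. How the ratios were made is not given in the sources used here. In all rows the median over uninjured arrays 1 to 3, and over 4 to 6, is 1 within 0.0001, and array 7 is 1. Of 31042 probe sets that are not controls, 20826 have a single platform symbol.

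Log2 ratios were fitted with limma 3.58.1 (lmFit, eBayes; R 4.3.3). Neurons or regenerating axons were tested against the reference, array 7, which was given the error of 1 array, with spread from those 3 arrays and from uninjured arrays 1 to 6 about the mean of their set. That error was not measured. Regenerating axons and neurons were compared as 2 groups. No filter on level was possible. The fits of the 3 comparisons were tested on simulated ratios with known changes. The simulation gave the reference the error that the fits assume, so it cannot check that assumption.

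The members, lists and tests were chosen with earlier results of these data known. The named genes are all members, up to 2 called probe sets each way of each list, and the nearest probe sets. Chemosensory receptors are symbols beginning Olr, Vom1r, Vom2r, Tas1r or Tas2r. The number of arrays limits the precision. Promoter sequences come from RefSeq (GRCr8).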

Additional observations from a re-analysis of the deposited data

Results flagged for a closer look

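In the uninjured axon arrays, 1 of the 11 member probe sets had an array far from the others. The *Npy* ratio in uninjured array 5 was 0.708, with the next lowest of the 6 arrays at 0.987, a gap of 0.680 of the whole range in log2. Chance flags about 1 in 20 such groups of independent values, and these 6 are not independent, because each set of 3 uninjured arrays was divided by its own median.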

How the results depend on the processing

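The calls of neurons against uninjured axons were stable for the members. The 6 higher and *Gad2* lower passed in every alternative run, and the count of members lower became 2, by adding *Penk*, with no error for the reference, with a plain 2-group fit against uninjured arrays 1 to 6 and against arrays 1 to 3. Among members, 2 uncalled values changed sign when an array was left out: *Tac1* in neurons ran from log2 -0.25 (without neuron array 3, adjusted p = 0.660) to 0.45, and *Gad2* in regenerating axons from -0.19 to 0.0035 (without regenerating array 2, adjusted p = 0.998).

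Regenerating against uninjured axons depended on the error given to the reference. With none, 3 members were lower (*Cck*, *Npy*, *Sst*) and 2 higher, among 3707 and 3539 probe sets, against 104 and 3 as reported. With the plain 2-group fit against arrays 1 to 6 it was 2 lower and 2 higher, among 2924 and 2298. Against arrays 1 to 3, a fit added after seeing the data, 2 were lower among 1632 lower and 656 higher probe sets. With spread from uninjured arrays 1 to 3 these were 43 and 0, and from arrays 4 to 6 they were 224 and 4, with 1 member lower. Over genes 1 member, *Cck*, was lower (adjusted p = 0.0412) and 5 genes were higher. Leaving out 1 array at a time gave 0 to 1 members lower, 0 to 462 probe sets lower and 0 to 17 higher. In neurons, without the reference's error, 12959 probe sets were lower instead of 8523. Over genes 5249 were higher and 3271 lower in neurons, and 4444 and 6279 in regenerating axons against neurons, where fewer features were tested than the 11568 and 10930 probe sets.

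Same-numbered samples did not deviate together throughout, so the numbers were not taken as pairs. Between regenerating and neuron arrays r was 0.13, 0.12 and -0.09. Between uninjured and regenerating arrays it was -0.31, -0.08 and -0.14, and between uninjured and neuron arrays -0.10, -0.002 and 0.12. With the replicate number as a block, 2 members, *Cck* and *Npy*, were lower in regenerating than in uninjured arrays 1 to 3, among 600 lower and 68 higher probe sets, and the call of *Vip* against neurons was lost (adjusted p = 0.0908). Signal over background cannot be judged from ratios.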
